A study of Homo sapiens with 9 samples.

Results

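Cholesterol and fatty acid synthesis genes were followed in cells of the H2030 line, established from a human non-small cell lung tumour, after siRNA against ENAH. The set was a fixed list of 33 symbols matched by name in the deposited gene table: 20 sterol genes (18 enzymes plus the sterol-handling proteins STARD4 and TMEM97), 8 fatty acid genes and 5 regulators of SREBP factors. All 33 were found among the 29972 genes of the table, and all 33 were among the 13498 genes that passed the filter on low values. ENAH encodes hMENA, an actin regulator, and hMENA11a is its isoform that contains exon 11a. The siMENA11a group received a mix of 3 siRNAs matching exon 11a, the siMENA group received a siGENOME SMARTpool directed at ENAH as a whole, and the control group received an ON-TARGETplus non-targeting pool. Every group thus carried duplexes at 20 nmol/L and Lipofectamine RNAiMAX, and all were grown in medium with fetal bovine serum. The non-targeting pool belongs to another reagent line than the SMARTpool. Each of the 3 groups had 3 libraries of ribosome-depleted total RNA. The labels do not state that these came from separate cultures, so p-values measure the spread between libraries, which may be technical.

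Cholesterol is built from acetyl-CoA through mevalonate, farnesyl diphosphate, squalene and lanosterol, while fatty acids are built from the same acetyl-CoA through malonyl-CoA and are then elongated and desaturated. The SREBP transcription factors drive both branches: SREBP2, from SREBF2, acts mainly on sterol genes, and SREBP1, from SREBF1, mainly on fatty acid genes. SCAP carries the membrane-bound precursors from the endoplasmic reticulum to the Golgi for cleavage, and the INSIG proteins hold SCAP back when sterols are plentiful.

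Values below are scaled TPM, the deposited transcript abundance divided by a size factor for each library, and log2 fold changes were taken on log2(scaled TPM + 0.5), which understates the change of low genes. Calls required a limma p under 0.05 after Benjamini-Hochberg adjustment across all 13498 genes. ENAH was at 46.7, 47.5 and 48.7 in the siMENA11a libraries, at 6.89, 7.30 and 7.48 in the siMENA libraries and at 43.6, 43.2 and 44.7 in the control libraries. The siMENA libraries were therefore far below both other groups, with a log2 fold change of -2.52 ± 0.038 (SE, limma adjusted p = 4.98e-10) against control. Every siMENA11a library lay above every control library, and ENAH was called higher there (0.12 ± 0.038, limma adjusted p = 0.0247). Gene-level values sum the isoforms, so they do not check the loss of exon 11a. RN7SL transcripts took 44.3% to 45.2% of the TPM in siMENA11a, 39.6% to 40.6% in siMENA and 39.7% to 41.1% in control, and size factors were 0.886 to 0.973, 1.06 to 1.09 and 0.995 to 1.04 in the same groups. Of 6 epithelial markers, 4 reached 1 TPM, with KRT19 and CDH1 at or near 0, and endothelial and hepatocyte markers summed to at most 1.25 TPM in any library. The 6 leukocyte markers summed to 115 to 122 TPM in siMENA11a, 43.4 to 53.9 in siMENA and 96.9 to 109 in control, nearly all from CD68, with PTPRC near 0 and CD3E at 0. The 6 fibroblast markers, of which 2 reached 1 TPM, summed to 7.28 to 7.59, 16.5 to 18.2 and 8.79 to 9.39 in the same groups, and the part of either list in the results was not tested.

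After siMENA11a, both branches were lower than in control. Of the 33 genes, 23 fell, 6 rose and 4 were not called, so 87.9% were called, against 55.6% of all tested genes. By direction, 27.7% of all tested genes were called lower and 27.9% higher. In control, the 30 highest of the 33 genes each lay above at least 52.8% of all tested genes, and the shares are not matched for level. The 33 genes were also chosen with earlier results of these data known. The median log2 fold change was -0.39 over the 33 genes and 0.01 over all tested genes. In 23 genes every siMENA11a library lay below every control library and in 5 every one lay above, against 62.9% of all genes without overlap. After siMENA fewer of the genes were called and most of those were higher: 13 rose, 4 fell and 16 were not called, so 51.5% were called against 49.4% of all tested genes (23.7% higher and 25.8% lower), and the median was 0.06 against 0.01. On TPM as deposited, without size factors, the higher share of calls over all genes was 28.6% for siMENA11a (50.2% with them) and 63.4% for siMENA (47.9% with them), all-gene medians were -0.11 and 0.09, and of the 33 genes 25 fell and 3 rose after siMENA11a and 3 fell and 16 rose after siMENA. Both comparisons use the same 3 control libraries, so they are not independent of each other. In bulk RNA, fewer cells of a kind and less RNA per cell cannot be told apart.

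**Figure D1:**
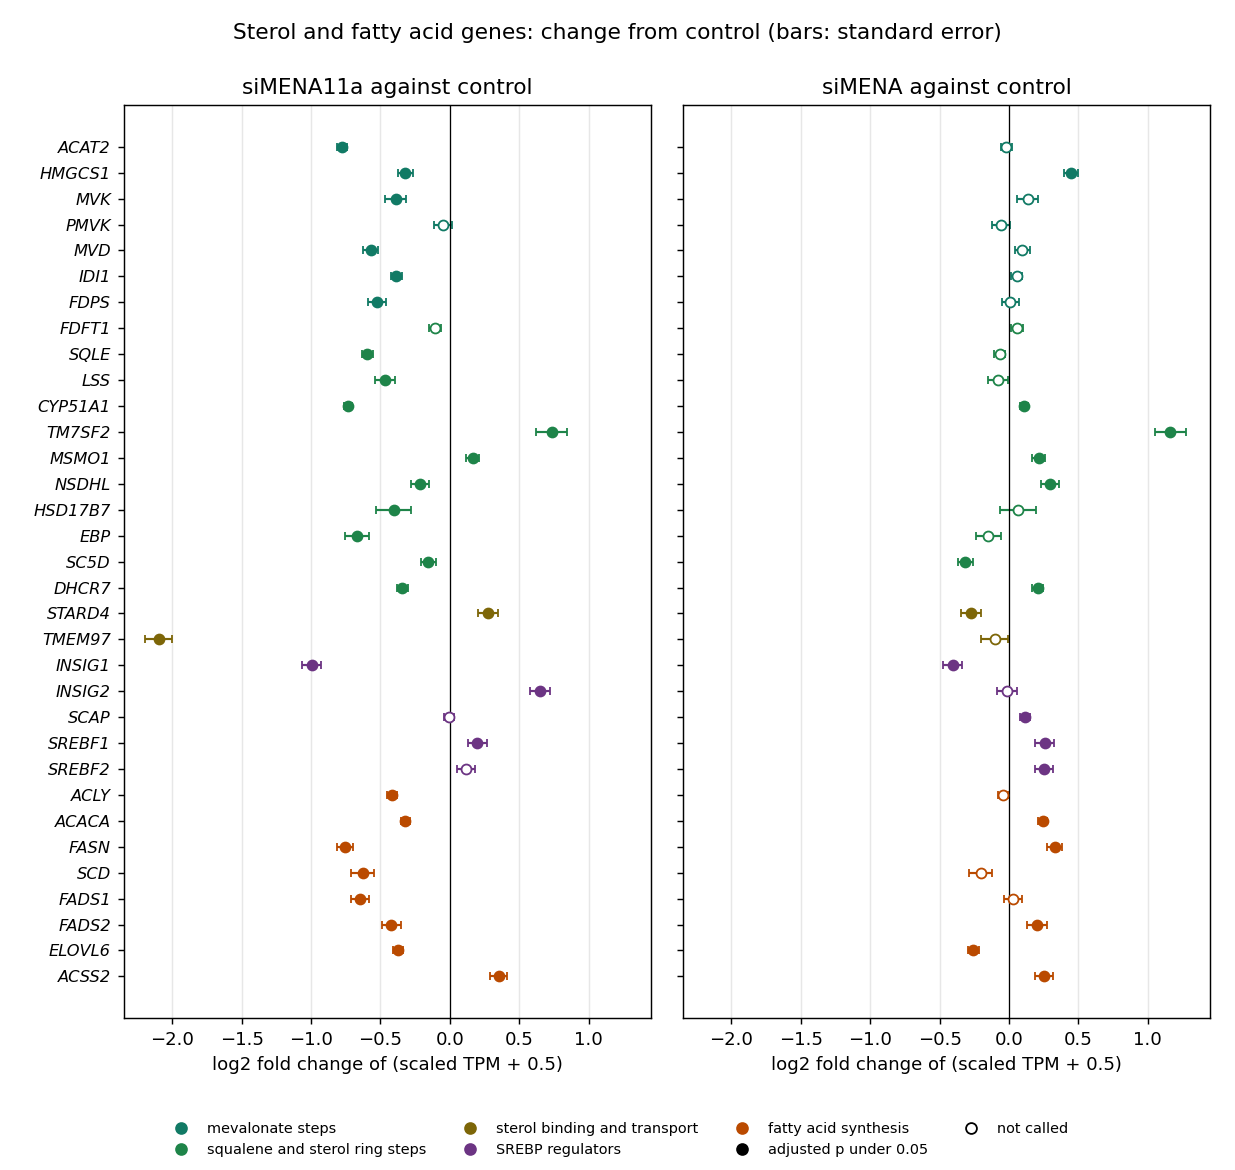
Log2 fold change on the log2(scaled TPM + 0.5) scale of each of the 33 genes for siMENA11a against control (left) and siMENA against control (right); bars are SE, n = 3 libraries a group, and filled points passed limma's adjusted p threshold. Most points on the left lie below 0, TMEM97 at -2.10 furthest, while those on the right gather near 0 with TM7SF2 at 1.16 highest.

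The siRNA sequences are not used here, so exon 11a itself was set beside the genes that fell. It was taken to be the coding exon of ENAH with 63 bases, at chr1:225504991-225505053 on the minus strand of GRCh38 (GENCODE 29). A word of 7 bases shared by a 3′ UTR and the exon is what the seed of an siRNA guide could pair with, and the words CCAAGGA and CAAGGAA had the lowest mean fold change, among the exon's 57 words, over genes outside the set that carry them. At least 1 of these words stood in the 3′ UTR of 24.4% of the 11307 tested genes with such an annotation, of 58.0% of the 162 genes called lower by at least 1 log2 unit, and of 33.3% of the 33 genes (11). The fold changes of genes outside the set chose the words, so the share among genes called lower is a description. Among these genes it stood in 9 of the 23 that fell and in 2 of the 10 that did not. The exon stretch and the sites of the genes described next are shown with the bases shared with the exon in capitals (for the exon, both words together).
ENAH exon 11a: cgggattctCCAAGGAAaaatcagatt
TMEM97, the first site: ggatacaataCAAGGAAcactgctcag
TMEM97, the second site: cctctaacCCAAGGAAAAAagagaaaa
INSIG1: attctgagagCAAGGAAgattttggaa
CYP51A1: aaaaggttgCAAGGAAcgaatatatgt
TM7SF2: gtttagagCAAGGAAAAAaatgaaacc
The second TMEM97 site, at chr17:28327630-28327656, shared 11 bases with the exon, and the TM7SF2 site, at chr11:65116193-65116219, shared 10. TMEM97 fell and TM7SF2 rose. Without the 11 carriers, 14 of the other 22 genes fell and 5 rose, with a median log2 fold change of -0.36, while the 11 carriers alone had 9 that fell, 1 that rose and a median of -0.42. This split was chosen after the data had been seen, and the part of the siRNA mix in any fall was not tested.

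The mevalonate steps fell after siMENA11a in 6 of 7 genes, with a median log2 fold change of -0.39. ACAT2, which joins acetyl-CoA units at the start of the route, was at 38.5, 35.6 and 36.1 in siMENA11a and at 64.5, 61.7 and 63.6 in control, a log2 fold change of -0.78 ± 0.038 (SE, limma adjusted p = 3.8e-07). MVD, which makes isopentenyl diphosphate, was at 16.4, 14.1 and 15.1 in siMENA11a and at 23.6, 22.0 and 22.6 in control (-0.57 ± 0.054, limma adjusted p = 2.1e-05). FDPS, which makes farnesyl diphosphate, was at 108, 106 and 91.3 in siMENA11a and at 146, 138 and 154 in control (-0.52 ± 0.062, limma adjusted p = 8.4e-05). In all of these the siMENA11a libraries lay below every control library. HMGCS1, the synthase before HMG-CoA reductase, MVK, mevalonate kinase, and IDI1, the isopentenyl diphosphate isomerase, fell by 0.32, 0.39 and 0.39. PMVK, phosphomevalonate kinase, averaged 42.8 ± 2.61 in siMENA11a and 44.3 ± 1.37 in control (SD, n = 3 each) and was not called in any comparison, except on TPM as deposited (-0.18 for siMENA11a against control and -0.21 against siMENA). ACAT2 shares exon positions with TCP1 and SOD2 on the opposite strand, which had log2 fold changes of -0.21 and -0.28, MVK shares them with MMAB on the opposite strand (-0.35), and FDPS has 8 named pseudogenes. The use of strand in counting is not stated in these sources. After siMENA, ACAT2, MVD and FDPS were not called against control, at -0.02, 0.10 and 0.01. Each was called higher under at least 1 other scaling, at up to 0.20.

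The squalene and ring steps fell in 8 of 11 genes and rose in 2, with a median of -0.34. CYP51A1, the lanosterol demethylase, was at 23.0, 22.7 and 21.9 in siMENA11a and at 37.7, 37.8 and 38.2 in control (-0.74 ± 0.030, limma adjusted p = 1.41e-07). SQLE, squalene epoxidase, was at 21.7, 20.9 and 22.8 in siMENA11a and at 33.1, 32.4 and 34.0 in control (-0.59 ± 0.041, limma adjusted p = 3.03e-06). EBP, the sterol isomerase, was at 15.3, 11.5 and 12.9 in siMENA11a and at 21.0, 22.5 and 20.2 in control (-0.67 ± 0.089, limma adjusted p = 0.000179). None of the siMENA11a libraries overlapped control in these 3 genes. LSS, the cyclase that makes lanosterol, and DHCR7, the last reductase of the route, fell by 0.47 and 0.34. HSD17B7 and NSDHL, also of the ring steps, and SC5D, a desaturase, fell by 0.40, 0.22 and 0.15, and MSMO1, another gene of the ring steps, rose by 0.16. CYP51A1 has 3 named pseudogenes and HSD17B7 has 2. The calls of HSD17B7, NSDHL, SC5D and MSMO1 ended when single libraries were left out. HSD17B7 was at -0.28 without siMENA11a 3, -0.35 without control 2 and -0.33 without control 3; NSDHL at -0.20, -0.16 and -0.17 without siMENA11a 2, siMENA11a 3 or control 3; and MSMO1 at 0.13 and 0.14 without siMENA11a 1 or control 2, and at 0.03 on TPM as deposited. SC5D lost its call without siMENA11a 1 or 2 or any control library, at -0.17 to -0.13, and also lost it with a replicate block. On the rescaled TPM without small and abundant non-coding RNAs, SC5D was at -0.083 and NSDHL at -0.14, and neither was called. FDFT1, squalene synthase, averaged 37.9 ± 1.47 in siMENA11a and 40.9 ± 2.11 in control (SD, n = 3 each) and was not called (limma adjusted p = 0.0586). It was called without siMENA11a 1, at -0.14, without control 2, also at -0.14, and on TPM as deposited, at -0.24. It was at -0.031 on TPM rescaled without small and abundant non-coding RNAs. After siMENA, SQLE and EBP were not called against control, at -0.07 and -0.15, though every siMENA library of EBP lay below every control library.

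TM7SF2, a sterol reductase of the ring steps, rose in both knockdowns. It was at 20.2, 20.8 and 19.5 in siMENA11a, at 25.0, 27.6 and 29.6 in siMENA and at 9.79, 12.5 and 13.9 in control. Every library of either knockdown lay above every control library, with log2 fold changes of 0.73 ± 0.109 (SE, limma adjusted p = 0.000352) and 1.16 ± 0.109 (limma adjusted p = 2.47e-05). Its neighbour VPS51, on the same strand and sharing exon positions, was at 0.06 and 0.05 in the same comparisons and was not called.

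TMEM97, a sterol-responsive membrane protein that binds the cholesterol transporter NPC1 and is also known as the sigma-2 receptor, had the largest change of the 33 genes after siMENA11a. It was at 9.82, 9.51 and 7.25 in siMENA11a, at 36.3, 38.2 and 35.0 in siMENA and at 40.1, 39.8 and 37.8 in control. The siMENA11a libraries stood far below the other 6, by -2.10 ± 0.095 against control (SE, limma adjusted p = 2.33e-07), and siMENA overlapped control (-0.10, limma adjusted p = 0.394). TMEM97 carries both exon words and has 2 named pseudogenes, and IFT20, on the opposite strand with shared exon positions, rose by 0.54. STARD4, a cytosolic sterol carrier, was at 25.8, 22.6 and 23.0 in siMENA11a, at 16.5, 16.3 and 15.6 in siMENA and at 17.5, 20.5 and 21.0 in control. All siMENA11a libraries were above and all siMENA libraries below control, at 0.27 (limma adjusted p = 0.0099) and -0.27 (limma adjusted p = 0.0118), but neither call held on TPM as deposited, where the values were 0.14 and -0.19. The siMENA call was also lost on TPM rescaled without small and abundant non-coding RNAs, at -0.18.

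**Figure D2:**
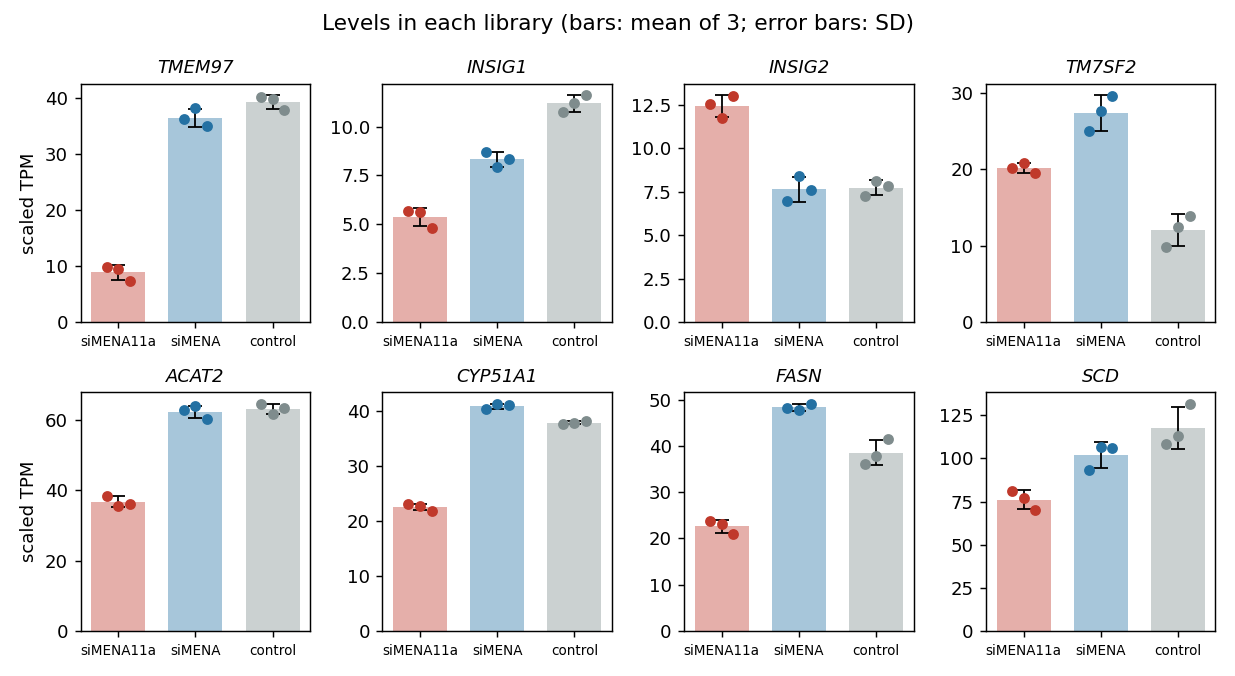
Scaled TPM of TMEM97, INSIG1, INSIG2, TM7SF2, ACAT2, CYP51A1, FASN and SCD in each library (points), with group means (bars) and SD, n = 3 a group. TMEM97 stands at 7.25 to 9.82 in siMENA11a against 37.8 to 40.1 in control, and FASN is lower than control after siMENA11a and higher after siMENA.

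Of the 5 regulators, 2 rose, 1 fell and 2 were not called after siMENA11a, and 3 rose and 1 fell after siMENA. Over all tested genes, 55.6% and 49.4% were called in the same comparisons, so these counts only describe the 5 genes. INSIG1, itself an SREBP target that retains SCAP, was at 5.69, 5.61 and 4.83 in siMENA11a, at 8.69, 7.93 and 8.34 in siMENA and at 10.8, 11.2 and 11.6 in control. Control was highest and siMENA11a lowest, with no overlap, at -0.99 ± 0.066 (SE, limma adjusted p = 2.28e-06) for siMENA11a and -0.41 ± 0.066 (limma adjusted p = 0.000793) for siMENA. INSIG2, the paralog that also retains SCAP, was at 12.6, 11.7 and 13.0 in siMENA11a, at 6.96, 8.40 and 7.60 in siMENA and at 7.28, 8.14 and 7.80 in control. It rose by 0.65 ± 0.072 after siMENA11a (limma adjusted p = 5.49e-05), while siMENA overlapped control. INSIG1 and INSIG2 thus had opposite directions after siMENA11a. SREBF2 was at 22.3, 21.9 and 20.3 in siMENA11a, at 23.4, 23.2 and 24.0 in siMENA and at 17.7, 20.1 and 21.5 in control, and rose after siMENA (0.25, limma adjusted p = 0.0111) but was not called after siMENA11a (0.12, limma adjusted p = 0.152; it was called without control 3, at 0.18, and on the rescaled TPM, at 0.20, and was at -0.011 on TPM as deposited). SREBF1 was at 21.2, 22.0 and 21.0 in siMENA11a, at 21.3, 22.6 and 23.3 in siMENA and at 17.3, 17.7 and 21.1 in control. It rose after siMENA (0.26, limma adjusted p = 0.0121), and its call after siMENA11a (0.20, limma adjusted p = 0.0352), where the libraries overlap control, was lost on TPM as deposited, at 0.07, and on leaving out any siMENA11a library or control 1 or 2, at 0.15 to 0.21. The siMENA11a call was also lost without the filter on low values and in a fit of only the 2 groups compared. SREBF1 shares exon positions with RAI1 on the opposite strand, which was at -0.06 after siMENA11a and 0.19 after siMENA (limma adjusted p = 0.226 and 0.00254). SCAP was at 15.7, 15.5 and 15.5 in siMENA11a, at 16.9, 16.5 and 17.2 in siMENA and at 15.4, 15.3 and 16.1 in control. It was called only after siMENA (0.11, limma adjusted p = 0.026), a call lost without siMENA 1 or 3 or control 1 or 2, at 0.10 to 0.11.

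Promoter windows of 300 bases, from 250 before to 50 after each RefSeq gene start (GRCh38.p14), were found for 29 of the 33 genes, 40 windows in all, and a gene was counted for a motif where any of its windows held it. SREBP proteins bind sterol response elements, usually beside the CCAAT-binding factor NF-Y. The letters TCACNCCAC, on either strand, stood in 1 of the 29 genes, SREBF2, and in 1.39% of all 27305 genes. The letters TCACCCCAC with at most 1 mismatch stood in 6 of 29 (20.7%), against 12.3% of all genes and 13.5% of tested genes. By list, these were 4 of 17 sterol genes, 1 of 7 fatty acid genes and 1 of 5 regulators. The letters CCAAT, on either strand, stood in 22 of 29 (75.9%), against 39.7% of all genes and 43.4% of tested genes. They stood in 15 of 17 sterol genes, 5 of 7 fatty acid genes and 2 of 5 regulators, and in 17 of the 20 genes that fell after siMENA11a, 4 of 6 of those that rose and 1 of 3 of those not called. The E-box CACGTG stood in 13.8%, against 8.77% of all genes and 12.6% of tested genes. The windows of SREBF2, INSIG1 and TM7SF2 are shown. SREBF2 carries the letters TCACNCCAC, INSIG1 fell most among the regulators and TM7SF2 rose most among the enzymes after siMENA11a. Capitals mark TCACNCCAC and CCAAT or its complement ATTGG.
SREBF2, chr22:41832855-41833154, plus strand: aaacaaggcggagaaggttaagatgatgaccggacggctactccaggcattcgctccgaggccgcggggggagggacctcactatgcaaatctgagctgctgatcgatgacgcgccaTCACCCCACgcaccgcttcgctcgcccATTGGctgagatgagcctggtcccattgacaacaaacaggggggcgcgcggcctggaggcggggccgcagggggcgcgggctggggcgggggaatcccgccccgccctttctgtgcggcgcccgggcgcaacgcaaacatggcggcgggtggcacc
INSIG1, chr7:155297628-155297927, plus strand: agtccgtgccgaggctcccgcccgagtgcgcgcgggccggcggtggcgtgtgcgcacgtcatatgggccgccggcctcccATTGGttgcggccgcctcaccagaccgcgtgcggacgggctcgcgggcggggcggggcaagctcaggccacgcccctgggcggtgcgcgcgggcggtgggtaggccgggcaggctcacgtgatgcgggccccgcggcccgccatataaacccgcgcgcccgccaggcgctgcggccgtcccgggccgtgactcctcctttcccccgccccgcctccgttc
TM7SF2, chr11:65111622-65111921, plus strand: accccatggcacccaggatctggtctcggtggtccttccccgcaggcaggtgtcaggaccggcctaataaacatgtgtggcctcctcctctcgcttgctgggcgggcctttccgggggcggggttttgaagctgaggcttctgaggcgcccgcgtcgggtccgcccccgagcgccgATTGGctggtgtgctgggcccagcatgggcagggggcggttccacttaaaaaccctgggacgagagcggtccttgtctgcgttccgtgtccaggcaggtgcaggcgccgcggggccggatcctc
A match is a description of letters, not a bound site.

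In the fatty acid branch, 7 of 8 genes fell after siMENA11a and ACSS2 rose, with a median of -0.42. FASN, the fatty acid synthase, was at 23.7, 23.1 and 21.1 in siMENA11a, at 48.2, 47.7 and 49.1 in siMENA and at 36.1, 37.9 and 41.4 in control. Its groups did not overlap and the knockdowns lay on opposite sides of control, at -0.75 ± 0.057 (SE, limma adjusted p = 4.78e-06) and 0.33 ± 0.057 (limma adjusted p = 0.0011). SCD, which desaturates stearate, was at 80.9, 76.8 and 70.0 in siMENA11a, at 93.2, 107 and 106 in siMENA and at 108, 113 and 132 in control, and fell by 0.63 after siMENA11a (limma adjusted p = 0.000177). FADS1, a desaturase of polyunsaturated fatty acids, was at 54.6, 51.9 and 47.9 in siMENA11a, at 79.2, 83.4 and 84.5 in siMENA and at 77.3, 76.6 and 88.9 in control (-0.65, limma adjusted p = 2.84e-05). In all of these the siMENA11a libraries were lowest. ACLY, which splits citrate to acetyl-CoA, was at 132, 125 and 121 in siMENA11a, at 159, 167 and 164 in siMENA and at 168, 168 and 169 in control, and fell by 0.42 (limma adjusted p = 1.27e-05). ACACA, which makes malonyl-CoA, was at 37.7, 38.9 and 37.6 in siMENA11a, at 57.6, 55.7 and 55.8 in siMENA and at 47.4, 46.8 and 48.7 in control, so it lay below control after siMENA11a (-0.32, limma adjusted p = 2.08e-05) and above it after siMENA (0.24, limma adjusted p = 0.000161). ELOVL6, an elongase, was at 12.9, 12.9 and 13.1 in siMENA11a, at 14.1, 13.7 and 14.6 in siMENA and at 17.0, 17.4 and 16.5 in control, lower in both knockdowns (-0.37 and -0.26). FADS2, a desaturase, fell by 0.42 after siMENA11a, and its rise after siMENA (0.20, limma adjusted p = 0.035) lost its call without siMENA 2 or 3 or control 1 or 2, at 0.17 to 0.21. The siMENA call was also lost without the filter on low values and with a replicate block. FADS2 shares exon positions with FEN1 on the same strand, which was at -0.47 and -0.45. FADS1 and FADS2 also share exon positions with each other, on opposite strands. ACSS2, which makes acetyl-CoA from acetate, rose in both knockdowns, by 0.35 and 0.25.

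**Figure D3:**
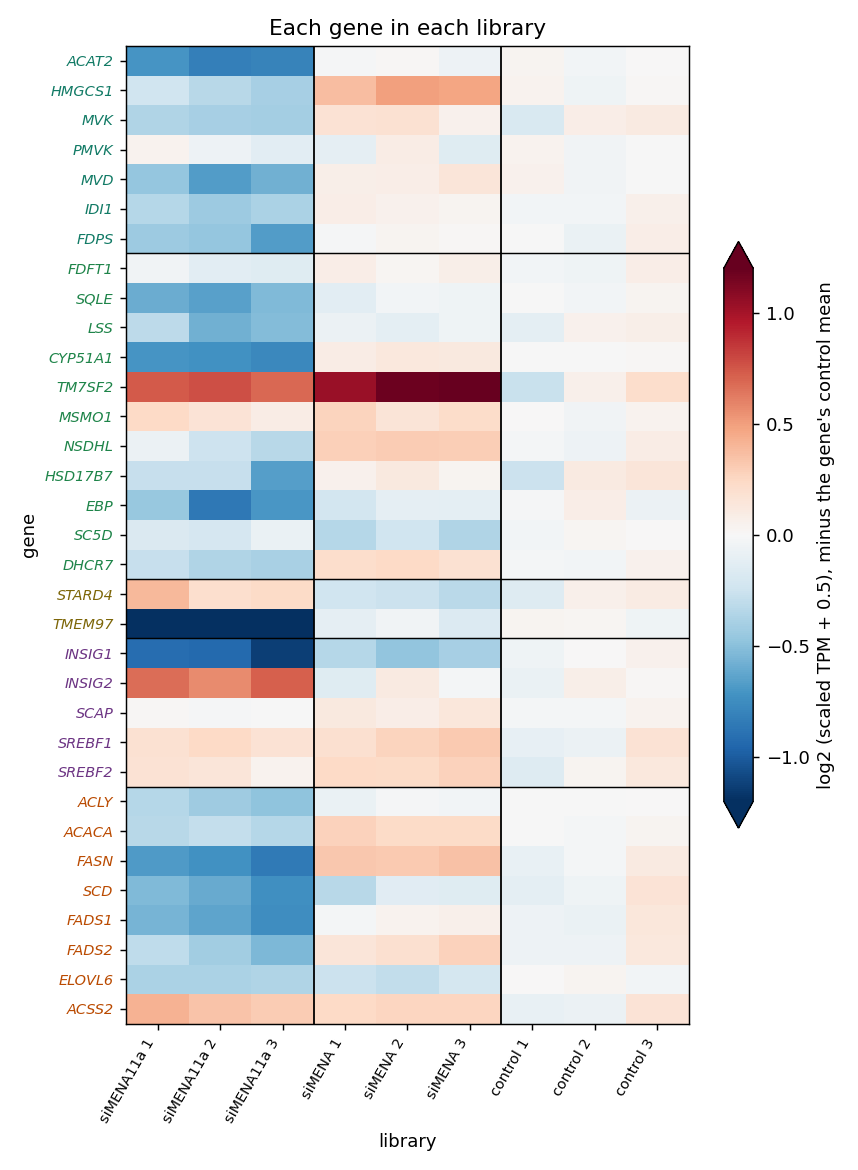
Log2(scaled TPM + 0.5) of each gene in each of the 9 libraries minus its control mean, with colours capped at ±1.2. The siMENA11a columns are lower than the control columns for 23 of the 33 genes, in sterol and fatty acid rows alike.

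After siMENA11a the gap between the sterol and fatty acid medians was small beside the distance of either from control. The per-library median of the 20 sterol genes, relative to the control mean, was -0.29, -0.38 and -0.40 in siMENA11a, 0.06, 0.06 and 0.04 in siMENA and -0.02, -0.03 and 0.05 in control. That of the 8 fatty acid genes was -0.36, -0.42 and -0.51 in siMENA11a, 0.06, 0.12 and 0.15 in siMENA and -0.06, -0.04 and 0.12 in control. Both medians were below every control library in each siMENA11a library. The sterol minus fatty acid difference was 0.073 ± 0.033 in siMENA11a, -0.055 ± 0.055 in siMENA and -0.0045 ± 0.059 in control (SD, n = 3 each), so siMENA11a and control overlapped at 0.041 to 0.108 and -0.069 to 0.047. Summed scaled TPM was 486.3 ± 25.4 in siMENA11a, 684.1 ± 10.6 in siMENA and 651.9 ± 17.4 in control for the sterol genes. For the fatty acid genes it was 441.9 ± 23.8, 620.8 ± 17.8 and 602.9 ± 33.6 in the same groups.

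**Figure D4:**
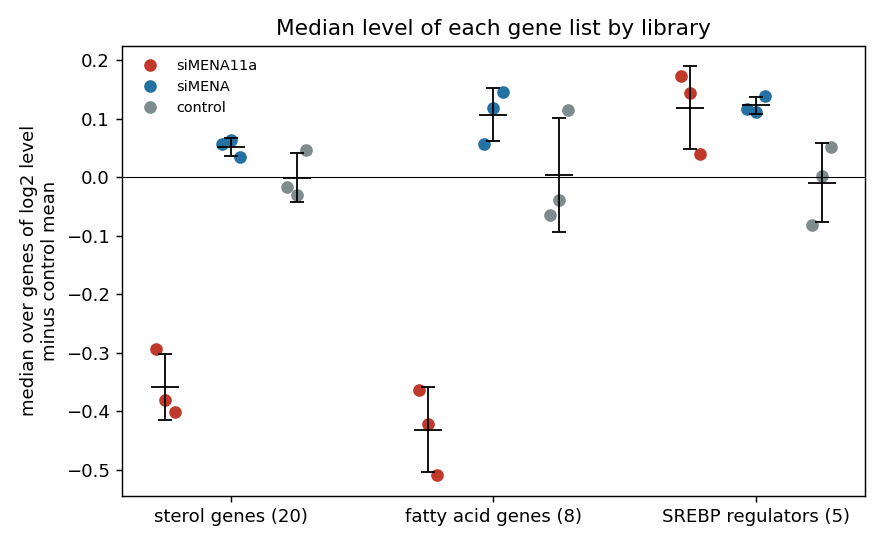
Median log2 difference from the control mean in each library (points) for the 20 sterol genes, 8 fatty acid genes and 5 regulators, with group mean and SD, n = 3 a group. The sterol and fatty acid medians of siMENA11a lie between -0.51 and -0.29, below all siMENA and control libraries, and those of the regulators do not.

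After siMENA, 6 of 20 sterol genes rose, 2 fell and 12 were not called, with a median of 0.06. Over all tested genes, 23.7% were called higher and 25.8% lower, 49.4% in either direction. Under 3 other scalings 16 to 18 of the 33 genes were called higher, but these scalings raised the all-gene median too. Of all calls, 63.4% were higher on TPM as deposited and 66.1% on TPM rescaled without small and abundant non-coding RNAs. The share was 53.7% with quantile normalisation and 47.9% with size factors alone. All-gene medians were 0.09, 0.11 and 0.03 under the 3 scalings and 0.01 with size factors alone. The sterol median was 0.024 without control 1 and 0.090 without control 3. HMGCS1 was at 23.5, 25.6 and 25.2 in siMENA and at 18.6, 17.4 and 18.2 in control, without overlap (0.44 ± 0.052, SE, limma adjusted p = 9.78e-05). NSDHL, MSMO1, DHCR7 and CYP51A1 rose by 0.30, 0.21, 0.21 and 0.11, and SC5D fell by 0.31. Of the 33 genes, only TM7SF2 was called with at least 0.5 log2 units after siMENA, against 12.8% of all tested genes, while 13 were after siMENA11a, against 16.3%.

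Between the knockdowns, 25 of the 33 genes were lower in siMENA11a than in siMENA, 3 were higher and 5 were not called, so 84.8% were called against 58.7% of all tested genes (29.2% lower and 29.5% higher), with a median of -0.47 against 0.00. In 26 genes every siMENA11a library lay below every siMENA library and in 4 every one lay above, against 65.1% of all genes without overlap. Sterol genes were lower in 16 of 20 (median -0.52) and fatty acid genes in 7 of 8 (median -0.49). TMEM97 was lower by -1.99, FASN by -1.08, CYP51A1 by -0.84, HMGCS1 by -0.76 and ACAT2 by -0.76 (limma adjusted p at most 1.54e-06). INSIG2 and STARD4 were higher by 0.67 and 0.55. FDFT1, not called against control, was lower in siMENA11a than in siMENA (-0.17, limma adjusted p = 0.00822). The calls of SC5D, SCAP and ELOVL6 here were lost on leaving out single libraries, at 0.12 to 0.15 for SC5D without siMENA11a 3, siMENA 1 or siMENA 3, at -0.11 to -0.10 for SCAP without siMENA11a 2 or 3 or siMENA 3, and at -0.11 to -0.10 for ELOVL6 without siMENA11a 1 or 2 or siMENA 3. SC5D was also not called on TPM rescaled without small and abundant non-coding RNAs, at 0.15, or in a fit of only siMENA11a and siMENA. On TPM as deposited SC5D was at -0.043 and not called.

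In 8 of 9 neighbouring gene lists, calls after siMENA11a went in both directions. Over all tested genes, 27.9% were called higher and 27.7% lower after siMENA11a, and 23.7% and 25.8% after siMENA. Between the knockdowns, 29.5% were higher and 29.2% lower in siMENA11a. A list count near these shares is not a result about that list. Of 13 genes of sterol uptake, storage and trafficking, 8 rose and 3 fell after siMENA11a (median 0.23) and 4 rose and 3 fell after siMENA. Among them GRAMD1B, which moves sterol from the plasma membrane, rose by 0.71 after siMENA11a, SCARB1, a lipoprotein receptor, rose by 0.55 and 0.77 in siMENA11a and siMENA, and CAV1, a caveolar protein, fell by 0.92 and 0.55. Of 9 genes that process or degrade SREBP and its partners, 2 rose and 2 fell after siMENA11a, and 2 rose and 4 fell after siMENA. ERLIN2, which helps degrade sterol-regulated proteins, fell by 1.00 and 0.83, UBXN4, of the same degradation route, rose by 0.38 and 0.25, and MBTPS1, the protease that first cuts SREBP, fell by 0.45 after siMENA11a. Of 6 tested LXR and oxysterol genes, 2 rose and 1 fell after siMENA11a, and 2 rose after siMENA. ABCA1, the cholesterol exporter, rose by 0.88 and 0.52, and after siMENA11a MYLIP, which degrades the LDL receptor, rose by 0.33 and LPCAT3, a phospholipid acyltransferase, fell by 0.32.

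The isoprenoid branch had 4 up and 4 down of 13 after siMENA11a, and 3 up and 4 down after siMENA. Over all tested genes, 55.6% and 49.4% were called in either direction. NUS1, a subunit of the enzyme that makes dolichol precursors, fell by 0.86 and 0.80. RABGGTB, a subunit of Rab prenyltransferase, rose by 0.61 after siMENA11a and fell by 0.21 after siMENA, and GGPS1, which makes geranylgeranyl diphosphate, rose by 0.42 and 0.25. Of 13 other elongation and desaturation genes, 3 rose and 5 fell after siMENA11a and 8 fell after siMENA, and 10 were higher in siMENA11a than in siMENA. The elongase ELOVL5 fell by 0.33 and 0.49, ELOVL2, another elongase, fell by 0.66 after siMENA11a, HSD17B12, a reductase of elongation, rose by 0.40 after siMENA11a, and HACD2, a dehydratase of elongation, fell by 0.82 after siMENA. Of 15 tested glycerolipid and lipid droplet genes, 7 rose and 5 fell after siMENA11a, and 3 rose and 3 fell after siMENA. GPAM, the first acyltransferase of glycerolipid synthesis, fell by 0.79 after siMENA11a, LPIN3, a phosphatidate phosphatase, rose by 0.39, and PLIN2, a droplet coat protein, fell by 0.43. PLIN3, another droplet coat protein, fell by 0.71 after siMENA.

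Of 9 tested genes that supply acetyl-CoA, citrate and NADPH, 3 rose after siMENA11a, and 4 rose and 1 fell after siMENA. For this and the next lists too, 55.6% and 49.4% of all tested genes were called in either direction. PGD of the pentose phosphate route rose by 0.24 after siMENA11a, MLYCD, which breaks down malonyl-CoA, rose by 0.61 and 0.39, MID1IP1, which promotes acetyl-CoA carboxylase polymerisation, rose by 0.21 and 0.25, and IDH1, an NADPH source, rose by 0.20 after siMENA. Of 14 tested fatty acid oxidation genes, 8 rose and 4 fell after siMENA11a and 4 rose and 4 fell after siMENA. CPT2, which acts in mitochondria, rose by 0.44 after siMENA11a and by 0.52 after siMENA, and ACAA2, a mitochondrial thiolase, rose by 0.25 after siMENA11a. Of 9 AMPK and mTORC1 genes, 6 rose and 1 fell after siMENA11a, and 2 rose and 4 fell after siMENA. PRKAB2, an AMPK subunit, rose by 0.83 after siMENA11a and fell by 0.34 after siMENA, MTOR, the kinase of mTORC1, fell by 0.32 and 0.83, and PRKAG1, another AMPK subunit, rose by 0.35 after siMENA11a.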

How the data were processed

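Gene expression was measured by RNA-seq in 9 libraries of H2030 cells, 3 in each of 3 siRNA groups. The authors deposited TPM per gene; the table's name points to RSEM, and kallisto and GRCh37 stand, without a role, in the submitters' processing notes. Libraries were stranded and ribosome-depleted, per the labels' protocols. Neither the aligner nor the strand setting of the counting is stated in these sources. Depth cannot be read from TPM, so the counting error of the values is unknown. Every value column entered the fit and 0 stayed unmapped.

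TPM was divided by a median-of-ratios size factor from 12341 genes whose mean TPM reached 1 or more. A mean scaled TPM of 0.5 or more was required, which left 13498 genes. Their log2(scaled TPM + 0.5) values were fitted by limma 3.58.1 (R 4.3.3) as 3 group means over 9 libraries without a block. P-values were adjusted by Benjamini and Hochberg over all tested genes, with a call under 0.05. The script was tested on simulated data. Errors are SE for fold changes and SD for levels.

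The 33 genes, the 9 companion lists (107 genes) and the words searched were chosen with earlier results of these data known. In the companion lists, 3 genes were matched by older symbols through RefSeq synonyms. All 33 genes are accounted for. Values by library are given for those called with at least 0.5 log2 units in a knockdown against control. They are also given for the 5 regulators and for up to 4 fatty acid genes by adjusted p. HMGCS1, STARD4 and ELOVL6 were added after their values were seen. For ACAT2, MVD, FDPS, CYP51A1, SQLE and EBP only the siMENA11a and control libraries are given, and for HMGCS1 only the siMENA and control libraries. From each companion list the 3 called genes of smallest adjusted p for siMENA11a against control are named, with the first for siMENA against control; some genes are not reported here. Loci and 3′ UTR sites come from GENCODE 29 (GRCh38) and promoters from RefSeq (GRCh38.p14). Alternatives were other scalings, filters, pseudocounts of 0.1 and 1, other list memberships, a replicate block and leaving out each library. Fits of only the 2 groups compared were also run.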

Additional observations from a re-analysis of the deposited data

How the results depend on the processing

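TPM keeps no depth, so precision rests on 3 libraries a group. On TPM as deposited, 28.6% of calls for siMENA11a against control were higher (50.2% with size factors), 63.4% for siMENA against control (47.9%) and 24.3% between the knockdowns (50.3%), with all-gene medians of -0.11, 0.09 and -0.20. There 3 of the 33 genes were called higher and 25 lower after siMENA11a, and the medians of the 3 comparisons in that order were -0.52, 0.14 and -0.73 for sterol genes and -0.55, 0.20 and -0.71 for fatty acid genes. Rescaled without small and abundant non-coding RNAs, where higher calls were 63.1%, 66.1% and 47.7% and all-gene medians 0.09, 0.11 and -0.02, sterol medians were -0.32 and 0.16 against control and the fatty acid median after siMENA was 0.22. With quantile normalisation, the siMENA medians against control were 0.13 for sterol and 0.25 for fatty acid genes, and their difference was -0.12. Of the single-gene values under alternatives, 40 changed sign, 36 of them not called before or after; the other 4 were PMVK (-0.21) and SC5D (-0.043) between the knockdowns on TPM as deposited, and ACAT2 (0.10) and ACLY (0.11) for siMENA against control with quantile normalisation; the cause was not tested. With SREBF1 among the fatty acid genes, their median was 0.20 for siMENA against control and -0.42 between the knockdowns, and with the 5 regulators the sterol median between the knockdowns was -0.47. In lists chosen after the data were seen, leaving out genes with overlapping neighbours or pseudogenes gave sterol medians of -0.28 and 0.020 against control for siMENA11a and siMENA, and fatty acid medians of 0.25 for siMENA against control and -0.34 between the knockdowns. Leaving out carriers of an exon word gave fatty acid medians of -0.63 (3 genes) for siMENA11a against control and -0.42 between the knockdowns. Leaving out 1 library at a time, the sterol median ranged from -0.44 to -0.33, from 0.024 to 0.090 and from -0.54 to -0.46 in the 3 comparisons, and 20 to 23 of the 33 genes fell after siMENA11a. Over 16 alternatives, 23 of 29 calls for siMENA11a against control, 14 of 17 for siMENA against control and 25 of 28 between the knockdowns remained in all. The labels name no batch behind the replicate numbers. After each gene's group mean was subtracted, same-numbered libraries of different groups correlated at -0.065 to 0.058. In 5 of 9 cases a library then correlated best with its own number, so a shared batch was not settled. With a replicate block 7309, 6386 and 7732 genes were called, and 22 of the 33 genes fell and 6 rose after siMENA11a.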
